A study of Homo sapiens with 6 samples.

Results

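The genes described here encode the proteins of the cytosolic ribosome. They were chosen by symbol alone: RPL (large subunit) or RPS (small subunit) followed by a number and an optional final A, X or L, together with RPLP0, RPLP1, RPLP2 and RPSA. The rule found 82 of the 23368 gene symbols listed, 49 of the large and 33 of the small subunit. RNA was sequenced from NB4 cells, an established human cell line of acute promyelocytic leukemia, either not treated (n.t., n = 3) or kept for 24 h with maltonis at 10 µM (n = 3). Maltonis is a maltol-derived antitumor compound, and its stock was dissolved in water. The 6 libraries come from a single cell line and share the same culture medium. Replicate 1 of both groups carries a different code in the deposited library names (batch A) than replicates 2 and 3 of both groups (batch B), and the meaning of this code is not stated.

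The ribosome translates mRNA into protein. Its small subunit reads the codons and its large subunit joins the amino acids, and the proteins of both surround a core of ribosomal RNA. Because most of the proteins are needed in equal numbers, their genes are known for high and parallel expression. Their mRNAs typically begin with a C followed by a run of pyrimidines (the terminal oligopyrimidine or TOP motif), through which mTOR and LARP1 control their translation, while MYC is a known activator of ribosome production.

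The libraries held 18492154 to 38205483 counts, and 3 counts corresponded to 0.0828 to 0.160 CPM, counts relative to the library total after scaling by the trimmed mean of M-values (TMM). As a check of the cell label, all 7 promyelocytic markers examined were expressed strongly enough to be tested, led by the granule enzyme gene MPO at 12890 to 15530 CPM in n.t. and 7298 to 7553 CPM in maltonis-treated cells. These markers did not move together, since 4 fell, MPO among them, while CTSG (log2 fold change 2.34) and AZU1 (0.48) rose and PRTN3 (0.50) did not pass the test described below. Of 7 markers of other blood cells, only NCAM1 was expressed enough to be tested. In bulk RNA, fewer cells of a type cannot be told apart from less RNA per cell.

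To show how transcripts of 4 members that fell and 4 that rose begin, taken from the named members with an entry in the RefSeq table used, the 30 bases around their start site are given in RefSeq's annotation of GRCh38.p14, as 15 bases before the start and 15 from it, written 5′ to 3′ on the gene's strand. Capitals mark the run of C and T that holds the start base itself, where it is at least 5 bases long. The windows lie at chr12:56116618-56116647 (plus strand) for RPL41, chr15:63157463-63157492 (minus) for RPS27L, chrX:101390996-101391025 (plus) for RPL36A, chr3:51995881-51995910 (minus) for RPL29, chr12:56041903-56041932 (plus) for RPS26, chr19:49487593-49487622 (plus) for RPL13A, chr12:120201097-120201126 (minus) for RPLP0 and chr11:809952-809981 (plus) for RPLP2. The first 4 genes had lower and the other 4 had higher RNA after maltonis.
RPL41: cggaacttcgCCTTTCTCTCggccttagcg
RPS27L: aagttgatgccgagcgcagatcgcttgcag
RPL36A: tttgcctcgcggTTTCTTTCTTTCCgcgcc
RPL29: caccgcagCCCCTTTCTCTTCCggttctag
RPS26: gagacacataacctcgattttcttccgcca
RPL13A: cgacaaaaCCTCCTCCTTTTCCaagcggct
RPLP0: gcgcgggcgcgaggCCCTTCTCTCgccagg
RPLP2: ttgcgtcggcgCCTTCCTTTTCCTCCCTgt
The run was present both in genes that fell (10 bases in RPL41, 13 in RPL36A, 14 in RPL29) and in genes that rose (14 bases in RPL13A, 10 in RPLP0, 17 in RPLP2). RPS27L and RPS26 had no such run at the annotated start, and in RPS26 a stretch of pyrimidines began just after it.

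Of the 82 members, 77 had enough counts to be tested. Those left out included RPL10L and RPL3L, with at most 2 counts in any library, and RPL21, listed at 0 in all 6. RPL21 has 66 annotated pseudogenes, and whether its reads were lost in the assignment to genes was not tested. After maltonis 16 of the 77 tested members (20.8%) passed an FDR of 0.01 in edgeR's quasi-likelihood test, 8 higher and 8 lower. Across all 13209 genes tested, 64.0% passed, 31.9% higher and 32.1% lower. The median log2 fold change, log2(FC), of maltonis over n.t. was 0.05 for the members and 0.01 for all genes. At an unadjusted p under 0.05 there were 32 members. The members that passed with at least a 2-fold change were RPL41, RPS27L, RPL36A and RPS26, that is 4 of 77, against 29.0% of all genes. Members are expressed above most genes, so the share was also read among genes at or above a log2 CPM of 7.18, the lower quartile of the members: 11 of 58 members passed there, against 60.9% of 1680 genes. CPM values did not overlap between the groups for 24 members (31.2%), including all 16 that passed, against 76.6% of all genes.

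The 95% interval of the fold change lay within 2-fold in either direction for 62 members, including 50 of the 61 that did not pass. For the other 11 the spread between libraries left a change of 2-fold or more within the interval. With batch as a term in the model, an alternative chosen after seeing the data, 38 of 77 members passed (49.4%), 23 higher and 15 lower, against 71.7% of all genes, and the 16 members named above were all among them with the same sign.

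**Figure D1:**
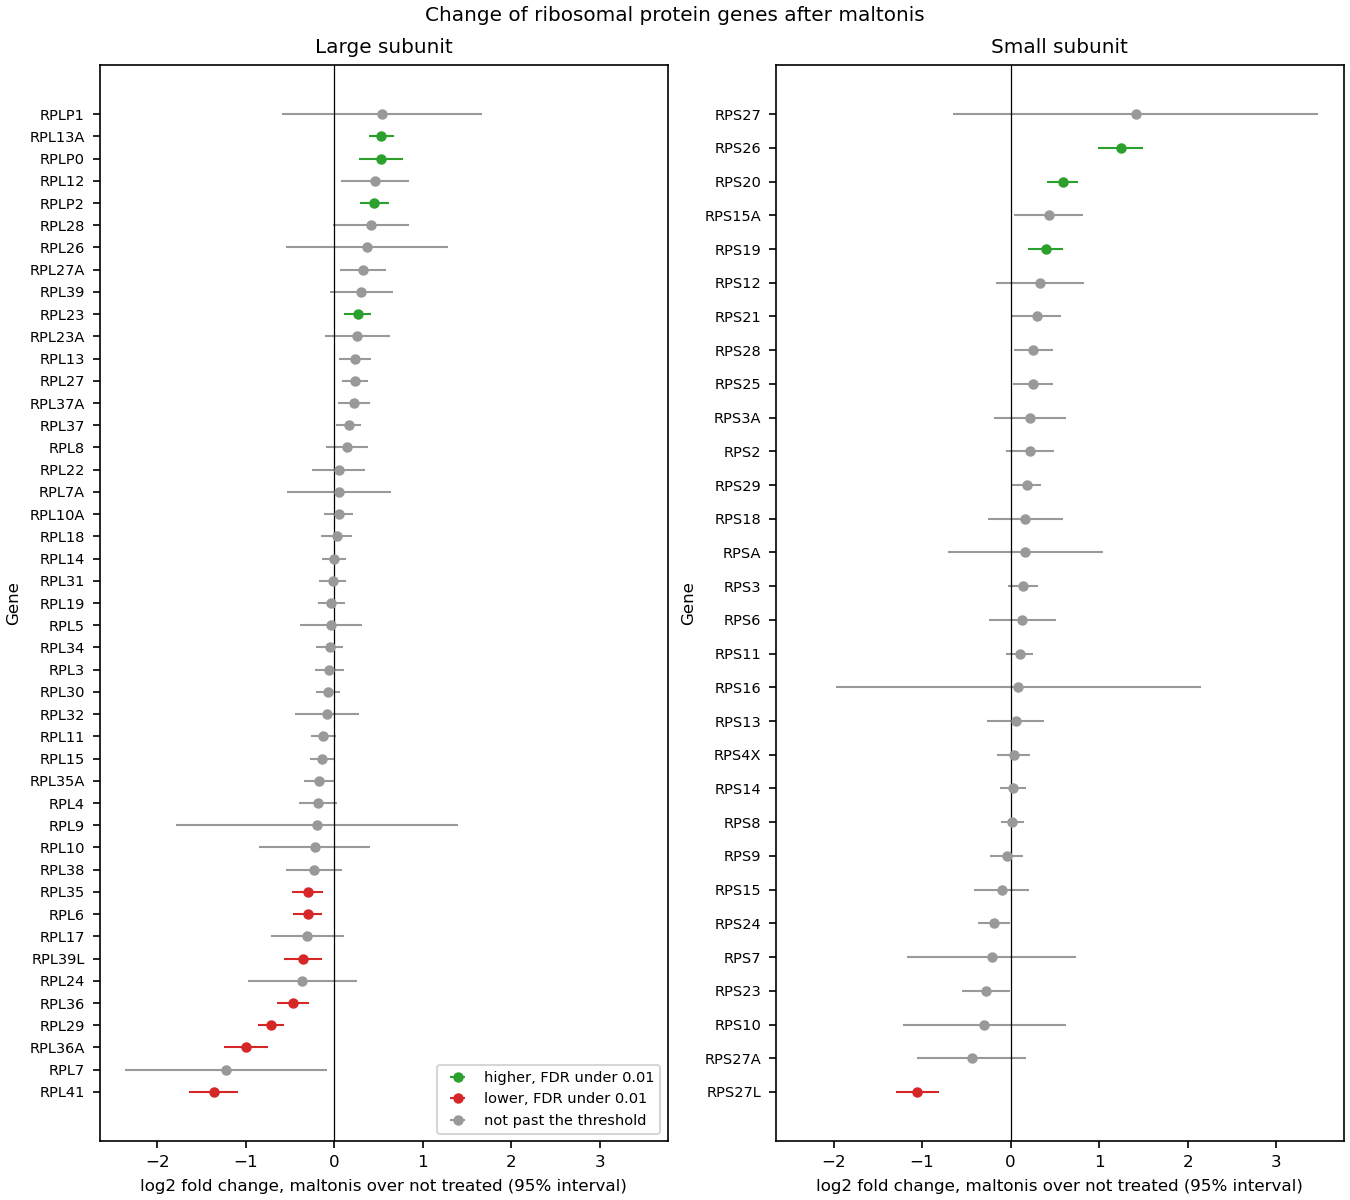
Log2 fold change of maltonis over n.t. for 45 large subunit and 30 small subunit members tested, with a point per gene with its 95% interval from edgeR (n = 3 libraries per group). Most points lie near 0, and RPL41, RPS27L, RPL36A and RPS26 are the members past the FDR threshold at 2-fold or more, while RPS27, RPS16, RPL9 and RPL7 have the widest intervals.

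Among the genes that fell, RPL41 fell the most. RPL41 encodes a very short, basic peptide of the large subunit. Its CPM was 18.8, 20.8 and 16.65 in n.t. replicates 1 to 3 and 7.07, 8.14 and 6.53 in maltonis replicates 1 to 3. The groups were well apart, with a log2(FC) of -1.36 (SE 0.122, FDR = 1.19e-05). Batch A gave a difference of -1.35 and batch B one of -1.29.

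RPS27L, a paralog of RPS27, had 23.5, 27.55 and 23.6 CPM in n.t. and 10.5, 12.5 and 12.85 CPM in maltonis-treated cells. Every treated library lay below every n.t. library, with a log2(FC) of -1.05 (SE 0.107, FDR = 2.55e-05). RPL36A, a large subunit protein with the near-identical paralog RPL36AL, had 11.1, 10.2 and 10.65 CPM in n.t. and 5.37, 5.79 and 4.76 CPM after maltonis, a log2(FC) of -1.001 (SE 0.108, FDR = 3.85e-05). RPL36AL had a log2(FC) of -0.09 and did not pass, and reads that fit both genes could be split between them.

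The lower members RPL41, RPS27L and RPL36A were all expressed far below most members, whereas RPL29 was abundant. RPL29, a protein of the large subunit that also binds heparin, had 469, 466 and 421 CPM in n.t. and 289, 269.5 and 268 CPM in treated cells. Its log2(FC) was -0.72 (SE 0.0651, FDR = 1.32e-05), and -0.70 and -0.72 within batches A and B. The remaining genes that fell were RPL36 (log2(FC) -0.47), RPL39L (-0.35), RPL6 (-0.30) and RPL35 (-0.30). Of these, RPL6 and RPL35 are abundant large subunit proteins and RPL39L is the paralog of RPL39.

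Among the genes that rose, RPS26, a small subunit protein near the mRNA exit and 1 of the genes mutated in Diamond-Blackfan anemia, rose the most. It had 7.51, 9.80 and 9.05 CPM in n.t. and 20.7, 19.7 and 22.65 CPM in treated cells. All treated libraries were above all n.t. libraries, with a log2(FC) of 1.24 (SE 0.112, FDR = 1.26e-05), 1.40 in batch A and 1.13 in batch B. RPS26 has 30 annotated pseudogenes, with which its reads could be shared.

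RPS20, a protein of the head of the small subunit, had 448.5, 503.5 and 468 CPM in n.t. and 650, 722 and 766 CPM after maltonis (log2(FC) 0.59, SE 0.0767, FDR = 0.000123). RPL13A, which outside the ribosome is known to silence translation in myeloid cells, had 317, 322 and 298 CPM in n.t. and 433, 453 and 469.5 CPM in treated cells (log2(FC) 0.53, SE 0.0595, FDR = 4.83e-05). In both genes the lowest treated library was above the highest n.t. library. RPS19, the gene most often mutated in Diamond-Blackfan anemia, had a log2(FC) of 0.40 (FDR = 0.00286). RPL23, a large subunit protein, also rose (0.26), and it falls outside the rule for named genes and was named after its values were seen.

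**Figure D2:**
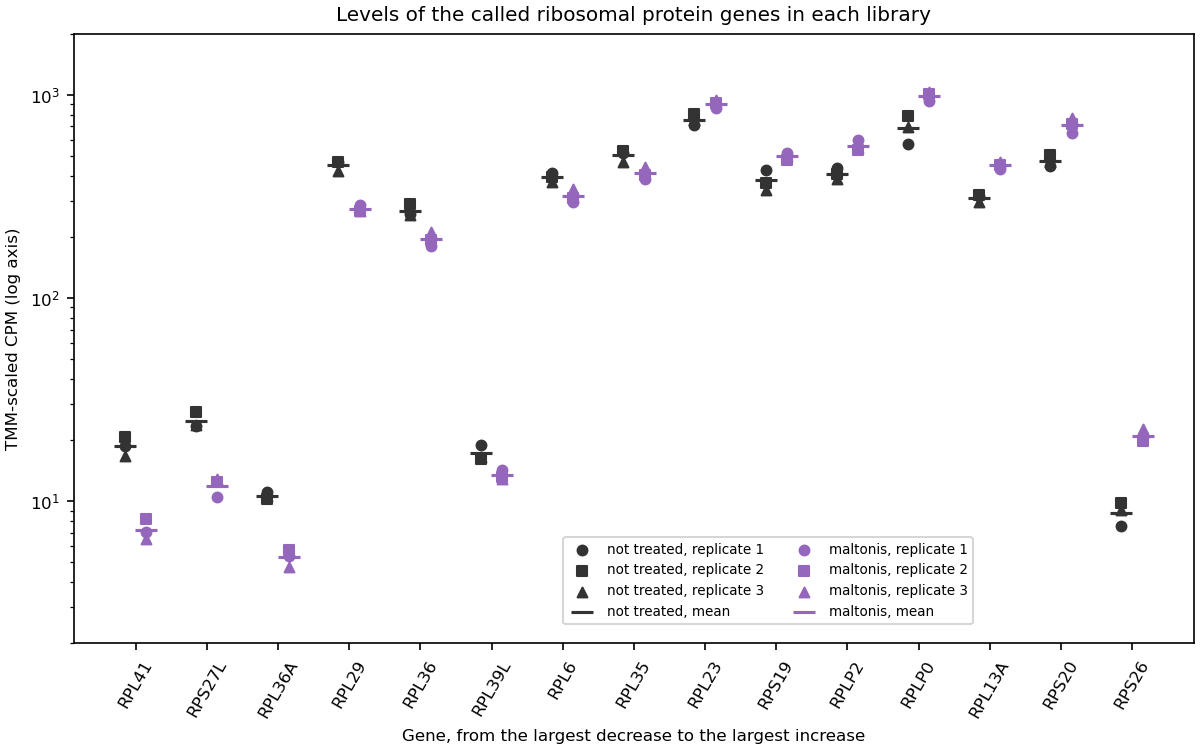
TMM-scaled CPM, on a log axis, of 15 members past the FDR threshold in each of the 6 libraries, with a bar at each group mean (n = 3 per group) and marker shapes for the replicate number. The groups do not overlap in any of the 15 genes, and RPL41, RPS27L, RPL36A, RPL39L and RPS26 lie far below the other 10 in level.

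With each library left out in turn, 9 of the 16 passed every time, namely RPL41, RPS27L, RPL36A, RPL29, RPL36, RPS26, RPS20, RPL13A and RPLP2. The other 7 did not pass, at FDR values between 0.0113 and 0.0583, in at least 1 such fit. RPL23 missed in all but the fit without n.t. replicate 2, and RPL39L in all but the fit without maltonis replicate 1. RPL35 missed without n.t. replicate 2 or maltonis replicate 1 or 2, RPL6 without replicate 2 of either group, RPS19 without n.t. replicate 2 or maltonis replicate 1 or 3, and RPLP0 without maltonis replicate 2 or 3.

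The stalk of the large subunit, which recruits the translation factors, is built of RPLP0, RPLP1 and RPLP2. RPLP0 rose from 575, 791 and 697 CPM to 929, 1014 and 1034 CPM (log2(FC) 0.53, SE 0.109, FDR = 0.00208). RPLP2 rose from 437, 408 and 385 CPM to 597, 537 and 549 CPM (log2(FC) 0.45, SE 0.0695, FDR = 0.000349). RPLP1 had a log2(FC) of 0.54 and did not pass (SE 0.492, FDR = 0.346). Its n.t. replicate 1 stood at 88.5 CPM while n.t. replicates 2 and 3 were at 448 and 444 CPM, and the treated libraries were at 369, 484 and 574 CPM. The RPLP1 difference was 2.05 within batch A and 0.24 within batch B, and the log2(FC) was 0.082 without n.t. replicate 1 and 0.83 without n.t. replicate 2.

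RPL5 and RPL11 form a particle with the smallest ribosomal RNA and, when free, bind MDM2, a ubiquitin ligase. Neither passed, with a log2(FC) of -0.04 for RPL5 (FDR = 0.837) and -0.12 for RPL11 (FDR = 0.0903). Their 95% intervals ran from -0.39 to 0.31 and from -0.26 to 0.01. In the same libraries MDM2 rose (log2(FC) 0.35).

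Several members with well known roles outside or within the ribosome did not pass. RPS6, the substrate of the S6 kinases, had a log2(FC) of 0.13. The value for RPS6 was -0.13 within batch A, and it passed with batch B only (0.30, FDR = 0.00508 in edgeR) and without n.t. replicate 1 (0.36, FDR = 0.00578 in edgeR), with a lowest value of 0.0022 without n.t. replicate 3. RPS14, which is haploinsufficient in a form of myelodysplastic syndrome, had a value of 0.03. RPL10 and RPL22, both mutated in some lymphoid leukemias, had values of -0.22 and 0.05. RPSA, also known as the laminin receptor, had a value of 0.16. RPS27A, made as a fusion with ubiquitin, had a log2(FC) of -0.44 with an FDR of 0.166, and with batch as a term its FDR was 3.37e-05. Of 18 tested members mutated in Diamond-Blackfan anemia, RPS26 and RPS19 rose and RPL35 fell (16.7% passed, beside 64.0% of all genes).

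RPL7 and RPS27 had changes of more than 2-fold that did not pass. RPL7, with 61 annotated pseudogenes, had 10.8, 12.4 and 28.9 CPM in n.t. and 2.74, 12.2 and 6.745 CPM after maltonis, so that the groups overlapped (log2(FC) -1.22, SE 0.498, FDR = 0.0516). RPL7 did pass in edgeR with batch as a term (-1.26, FDR = 0.00396) and with the replicate block (-1.22, FDR = 0.00638). RPS27 had 0.0533, 4.17 and 4.13 CPM in n.t. and 0.981, 4.80 and 18.0 CPM after maltonis (log2(FC) 1.41, SE 0.901, FDR = 0.185). Leaving out 1 library took the log2(FC) of RPS27 from 0.018 (without maltonis replicate 3) to 1.84 (without maltonis replicate 1). The value of RPS27 in n.t. replicate 1 rests on 1 count, below the 3 counts taken as the detection limit.

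Members with a final L are paralogs of a canonical protein, often with tissue-restricted expression. The paralogs tested, RPS27L and RPL39L, both fell. Of the canonical partners, RPL3, RPL10, RPL39 and RPS27, none passed, with log2(FC) values of -0.06, -0.22, 0.30 and 1.41. With batch as a term RPL39 (FDR = 0.000182) and RPL10 (FDR = 0.00399) passed in opposite directions.

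The subunits were then compared. Of 46 large subunit members tested, 4 rose and 7 fell (23.9% passed), with a median log2(FC) of -0.03. Of 31 small subunit members, 4 rose and 1, RPS27L, fell (16.1% passed), with a median of 0.15. Both shares lay below that of all genes, 64.0% (31.9% higher, 32.1% lower). With batch as a term, 13 large subunit members rose and 11 fell (52.2% passed), and 10 small subunit members rose and 4 fell (45.2%), beside 71.7% of all genes. The proteins shared by all domains of life had medians in the same order. In the large subunit 3 of 18 were higher and 1 lower (22.2% passed, median 0.01), and in the small subunit 2 of 15 were higher and 0 lower (13.3%, median 0.15). These medians are a description and were not tested against each other.

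The ratio of the summed counts of the subunits does not depend on the scaling between libraries and was tested directly. The large subunit held 1.64, 1.76 and 1.74 times the counts of the small subunit in n.t. and 1.67, 1.68 and 1.61 times in treated cells. The values overlapped, with a difference of -0.05 in log2 ratio (two-sided exact permutation test, p = 0.3). Batch A gave 0.02 and batch B -0.09, so its direction did not hold within batch A.

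Together the members took 3.16, 3.31 and 3.15% of all counts in n.t. and 3.43, 3.68 and 3.90% in treated cells. Every treated library was above every n.t. library, with means of 3.20% ± 0.0910 and 3.67% ± 0.234 (SD, n = 3). The difference of 0.467 percentage points had p = 0.1 in the two-sided exact permutation test, which is the smallest p that 3 against 3 libraries allow. It was 0.276 points in batch A alone and 0.563 points in batch B alone. The large subunit share rose from a mean of 2.02% to 2.29% and the small subunit share from 1.18% to 1.38%, each also without overlap (p = 0.1 in the same exact permutation test). Shares are on the scale of total counts, on which the median log2(FC) was 0.13 for all genes and 0.17 for the members. Read as the median log2(CPM + 0.5) over members on that scale, the difference was 0.14 (two-sided exact permutation test, p = 0.2).

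The split into higher and lower members moved with the scaling of the libraries. Scaling to total counts alone moved the median log2(FC) of all genes from 0.01 to 0.13 and that of the members from 0.05 to 0.17, and then 17 members were higher and 5 lower instead of 8 and 8. With total counts 64.8% of all genes passed. Relative to the median of all genes, the members lay 0.04 higher under either scaling, but this small difference was -0.06 with no filter on low counts, -0.04 without n.t. replicate 1, -0.03 without maltonis replicate 3 and 0.11 without maltonis replicate 1. RPL35, RPL6 and RPL39L no longer passed with total counts, at FDR values of 0.0457, 0.0423 and 0.0522.

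**Figure D3:**
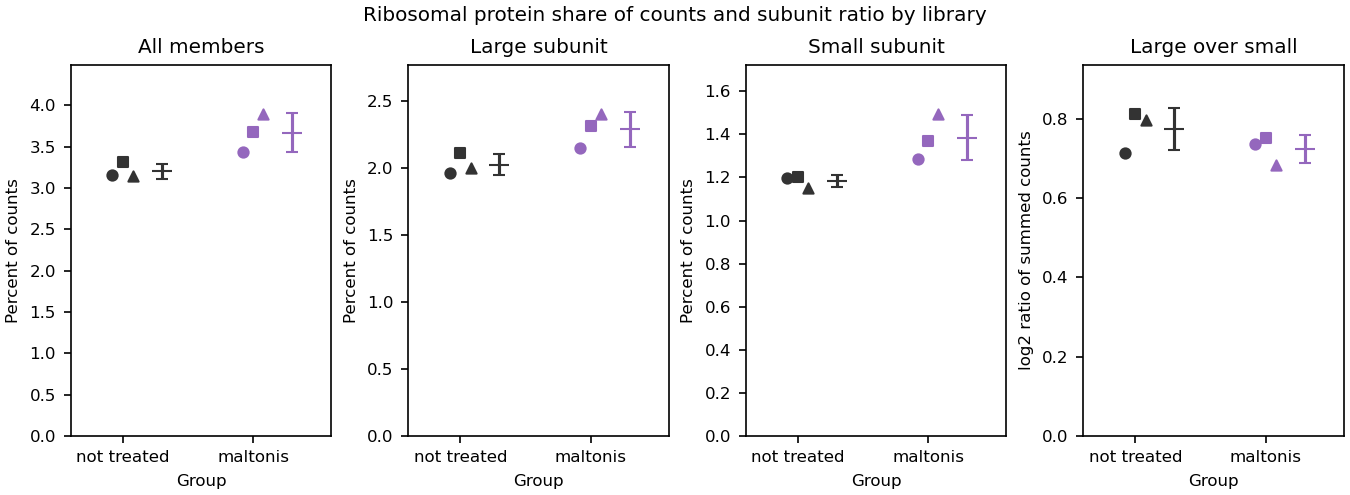
Percent of all counts held by all members, by the large and by the small subunit, and the log2 ratio of large to small subunit counts, in each library, with the mean and SD of each group (n = 3) beside the points and marker shapes for replicates 1 (circle), 2 (square) and 3 (triangle). The shares, of total counts without TMM scaling, are higher in all treated libraries, at 3.43 to 3.90% against 3.15 to 3.31% for all members. The ratios overlap.

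The counts were unevenly spread over the members. RPL18 alone held 9.78% of the members' counts, RPS6 6.56% and RPS3 4.40%. Per kilobase of annotated exon, RPL18 also led in n.t. cells with an RPKM (CPM divided by the exon length in kilobases) of 2313, followed by RPL30 at 1047, RPL19 at 962, RPL35 at 940 and RPS6 at 848. The medians were 215 RPKM for the large and 183 RPKM for the small subunit in n.t., and 211 and 195 RPKM after maltonis. RPL41, at 26.8 RPKM, RPL36A, at 8.52 RPKM, RPS26, at 6.79 RPKM, and RPS27L, at 3.13 RPKM, ranked 67, 73, 76 and 77 of the 77 tested members. These ranks depend on the exon length, which joins all annotated exons of a gene and was 7938 bases for RPS27L. By mean n.t. CPM, RPS27L (24.9) was above RPL41 (18.7), RPL36A (10.7) and RPS26 (8.79). None of the 3 members with the most counts passed, with log2(FC) values of 0.03 for RPL18, 0.13 for RPS6 and 0.15 for RPS3. RPS3 passed with total counts (0.26, FDR = 0.00795 in edgeR), and the fits in which RPS6 passed are given above.

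Replicate 1 stood apart from replicates 2 and 3 in many members, in both groups alike. For 28 of 77 members (36.4%) replicate 1 of both groups was below every replicate 2 and 3, against 4.60% of all genes. For RPS15, RPL18, RPS6 and RPL28 replicate 1 of both groups was above, as it was for 528 of all 13209 genes tested. RPS16 showed the largest such difference in n.t. (-4.82 on the scale of log2(CPM + 0.5)). Its values were 6.02, 163 and 206.5 CPM in n.t. and 45.1, 166 and 189 CPM in treated cells. On the same scale RPL9 (-2.94) and RPS27 (-2.74) lay farther below than RPS16 (-1.96) in treated cells. The offset of 0.5 shrinks differences at low CPM, and RPS27 stood at -3.07 in n.t. from 0.0533, 4.17 and 4.13 CPM. RPL26 had 77.7, 183.5 and 194 CPM in n.t. and 98.8, 228 and 261 CPM after maltonis. The treated value of RPL26 was above the n.t. value by 0.34 in batch A and by 0.37 in batch B on the log2 scale, and its FDR was 0.424 without and 0.000152 with batch as a term. Over the members, the median SD of log2 CPM within a group was 0.148 against 0.116 for all genes, and within batch B alone it was 0.0764 against 0.0653.

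Ribosomal protein genes have many processed pseudogenes, and 1133 were annotated for the members by name, with a median of 8.5 and a maximum of 91 for RPL23A. The 28 members that were low in replicate 1 had a median of 15 pseudogenes and the other 49 had 6. Across the 77 members the number of pseudogenes had a Spearman correlation of -0.33 with the replicate 1 difference in n.t. and -0.41 in treated cells, and of -0.04 with the log2(FC), where all members share the same libraries and depth. Whether reads were assigned between genes and pseudogenes differently in the batches was not tested.

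**Figure D4:**
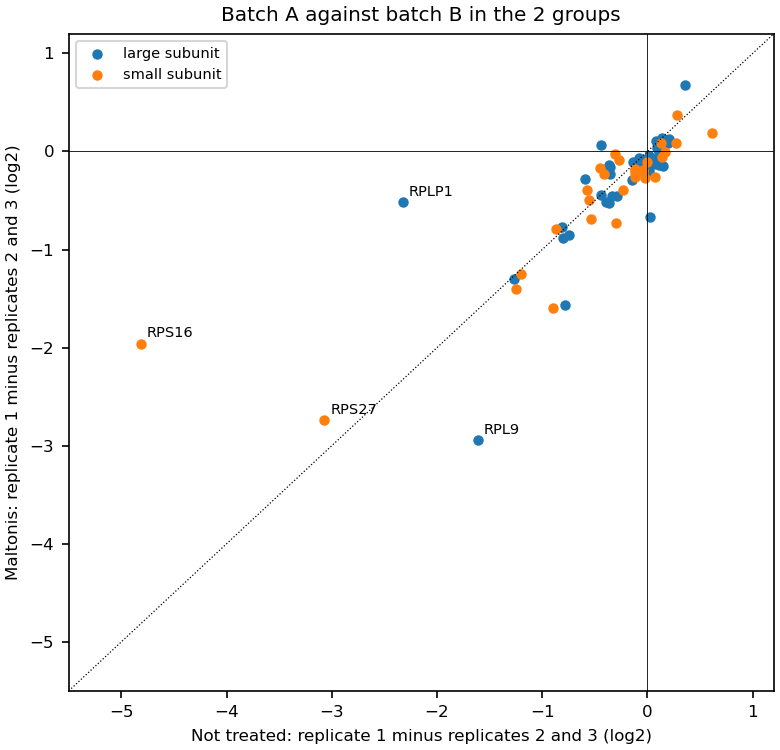
Difference in log2(CPM + 0.5) between replicate 1 (batch A) and the mean of replicates 2 and 3 (batch B) for 75 tested members, in n.t. (x axis) and in treated cells (y axis), colored by subunit, with a dotted line where both are equal. Most members with low values on one axis are low on the other, and RPS16, RPS27, RPL9 and RPLP1 lie far from 0.

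Some ribosomal protein genes carry small nucleolar RNAs, which guide the modification of ribosomal RNA, in their introns. Of 26 tested members that host such RNAs, RPS20, RPL13A, RPLP2 and RPL23 rose and 0 fell (15.4% passed, median log2(FC) 0.16). Of 51 that host none in the list used, 4 rose and 8 fell (23.5% passed, median -0.00). Both shares lay below the 64.0% of all genes that passed (31.9% higher, 32.1% lower). With batch as a term, 12 hosts rose and 1 fell, and 11 other members rose and 14 fell. The shares were then 50% of hosts, 49% of the others and 71.7% of all genes. These sets were not tested against each other.

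The start regions were described over the whole window of RefSeq, 250 bases before to 50 after the start, which was found for 64 of the 82 members. A run of at least 5 pyrimidines that holds the start base, as in the sequences printed above, was found in 49 members (76.56%) and in 11.93% of the 27305 genes of the table. It was present in 4 of 5 members that rose, 5 of 7 that fell and 39 of 50 that did not pass. The letters CTTTCC on the gene's strand were in 40.62% of the members and 16.58% of all genes. On either strand, CCGGAAG, which ETS factors bind, was in 35.94% against 12.16%, and CTCGCGAG was in 9.38% against 1.23%. The letters CACGTG, the E-box that MYC binds, were in 6.25% against 8.77%, and TATAAA was in 9.38% against 13.99%. These matches are a description and not evidence of binding.

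The assembly factors, which build the subunits in the nucleolus and are not part of the finished ribosome, mostly fell. Of 22 large subunit assembly factors, 16 fell and 0 rose, with a median log2(FC) of -0.53. The share that passed in either direction was 72.7%, beside 64.0% of all genes, of which 32.1% were lower. PES1, a nucleolar factor of large subunit maturation, fell the most, from 233, 237 and 221 CPM to 39.6, 35.8 and 36.6 CPM (log2(FC) -2.63, SE 0.0657, FDR = 2.29e-08). RPF2, which helps bring RPL5 and RPL11 into the large subunit, had the smallest decrease that passed (-0.38). Of 22 small subunit assembly factors, 18 fell and 1 rose (86.4% passed), with a median of -0.77, from RRP7A (-1.89) to KRR1, which rose (0.30). MYC fell from 595, 705 and 682 CPM to 192, 179 and 184 CPM (log2(FC) -1.84).

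Genes of translation outside the ribosome were mixed. Of 17 elongation factors and other TOP mRNAs, 5 rose and 1 fell (35.3% passed, median 0.04). EIF3F, an initiation factor subunit, rose by a log2(FC) of 0.86 and EEF2, which moves the ribosome along the mRNA, by 0.67, while NPM1, a nucleolar chaperone, fell (-0.87). With batch as a term 6 rose and 6 fell (70.6% passed, beside 71.7% of all genes). Of 13 regulators of TOP mRNA translation, 4 rose and 7 fell (84.6% passed), beside 31.9% higher and 32.1% lower of all genes. LARP1, which binds the TOP motif, fell from 538, 460 and 499.5 CPM to 284, 218 and 195 CPM (log2(FC) -1.10), and AKT1S1, an inhibitory subunit of the mTOR complex, rose (1.25).

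Ribosomal proteins whose symbols do not match the rule were examined too. FAU (log2(FC) -0.11) and GNB2L1, now named RACK1 (0.10), did not pass. The paralogs RPL7L1 (-0.99) and RPL26L1 (-0.71) fell, and RPL36AL and RPL22L1 did not pass, so that 2 of 7 fell and 0 rose (28.6% passed, beside 64.0% of all genes).

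**Figure D5:**
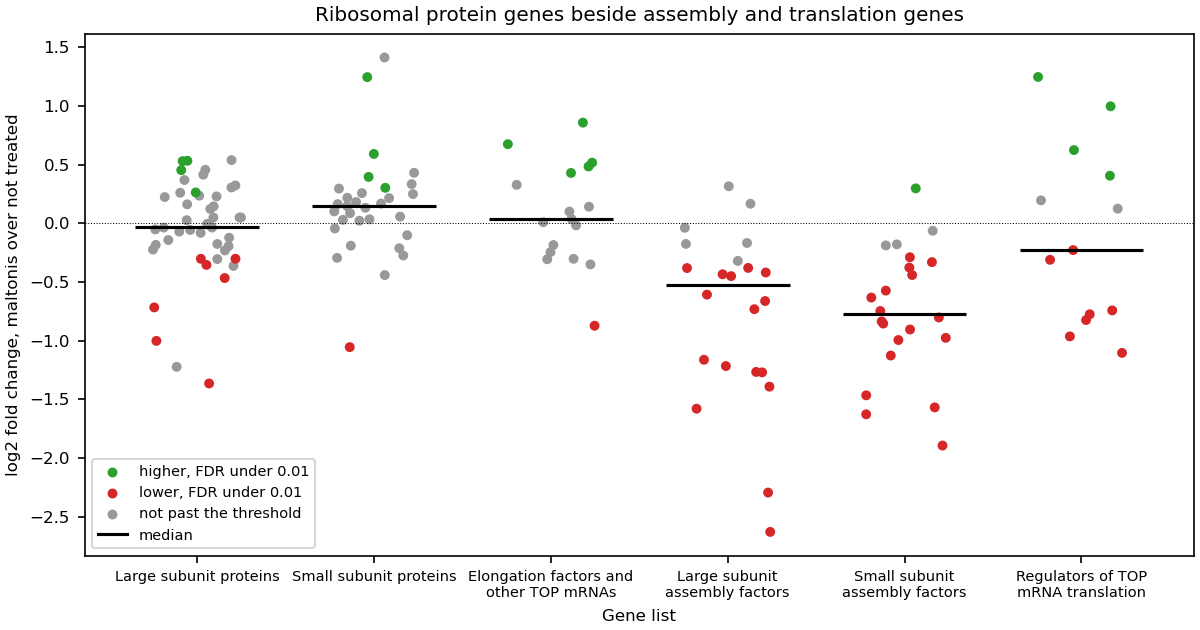
Log2 fold change of maltonis over n.t. for each tested gene of 6 lists, with a bar at the median and colors for the edgeR FDR threshold (n = 3 libraries per group), with horizontal scatter for legibility only. The large and small subunit proteins center near 0 (medians -0.03 and 0.15), and the assembly factors lie mostly below 0 (medians -0.53 and -0.77).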

How the data were processed

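RNA from NB4 cells had been depleted of ribosomal RNA and sequenced with a stranded kit. For each library the authors deposited a table of raw counts, whole numbers of reads per gene symbol without normalization. The submitters' processing notes name TopHat, Bowtie2, HTSeq and hg19, while the annotation and the strand setting are not given in the sources used here. Paralogs, pseudogenes and overlapping genes could therefore share or lose reads. The groups and replicate numbers come from the labels, and the study's text calls the replicates biological. No pair of replicates differed by as little as counting noise.

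The tests used edgeR 4.0.16 under R 4.3.3 (filterByExpr, TMM, quasi-likelihood test, no covariate) with Benjamini-Hochberg adjustment over 13209 genes, and called at an FDR under 0.01. FDR values come from this test unless another fit, such as one with batch as a term, is named beside them. CPM are TMM-scaled, and log2 CPM use a prior count of 2. Differences of genes within and between batches are on the scale of log2(CPM + 0.5) and have no test. RPKM were computed with exon lengths of GENCODE release 29 (GRCh38), which is not the build of the counts, so the files' genes were matched by symbol only. Start windows come from RefSeq. The tests were checked on simulated data. Intervals and detection limits cover only the error their model includes, for limits counting error.

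Named members were up to 10 of the largest decreases that passed (8 did), the 6 largest increases that passed, members with fixed roles, paralogs with a final L and their partners, the 3 with the most counts, FAU, GNB2L1 and MYC, and the extremes of each other list that passed. Genes such as RPL7, RPL9, RPL19, RPL23, RPL26, RPL28, RPL30, RPS15, RPS16 and EEF2 fall outside this rule and were named after their values were seen. Some genes that entered the counts are not reported by name here. The members and lists were chosen with earlier results of these data known. Alternatives were DESeq2 1.42.0 (size factors and Wald test), total counts, TMM without the members, other filters, the replicate block, batch B only and each library left out. The batch term, the within-batch values, the pyrimidine run and the alternatives for the other lists were chosen after seeing the data. Figures were drawn with Python 3.11.15 and matplotlib 3.10.9.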

Additional observations from a re-analysis of the deposited data

How the results depend on the processing

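With DESeq2 size factors, TMM without the members, the DESeq2 Wald test or no filter, 16 or 17 members passed, and all 16 named above kept their direction. Among all genes, 47.9% (no filter) to 66.2% (DESeq2 Wald test) passed in these fits. With total counts 17 members rose, 5 fell and 2 changed at least 2-fold (RPL41 and RPS26), 2 ribosomal proteins outside the rule and 1 large subunit assembly factor rose, and RPL5 (0.082), RPL3 (0.061) and FAU (0.0079), which did not pass with TMM, turned positive. With at least 50 counts in every library of a group, 5 members fell, 2 changed at least 2-fold, 1 protein outside the rule and 1 large subunit assembly factor rose, RPL35, RPL39L and RPL6 no longer passed, and RPL5 was 0.016. The TOP list had 2 genes lower with the DESeq2 Wald test and with no filter. With batch as a term 38 members passed (23 higher, 15 lower), and in the TOP list 6 fell and 1 large subunit assembly factor rose. With batch B only 34 passed (24 higher), 6 of the TOP list fell and 2 large subunit assembly factors rose. There RPL35 no longer passed (FDR = 0.0103 in edgeR) and RPL3 was 0.041. The share of all genes that passed was 64.8% with total counts and 67% with at least 50 counts. It was 71.7% with batch as a term and 69.4% with batch B only.

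With the replicate block 35 of 77 members passed (21 higher, 14 lower), against 69.8% of all genes. In this fit 4 of the TOP list fell and 1 large subunit assembly factor rose, and RPS27 passed at a log2(FC) of 1.33 (FDR = 0.00511 in edgeR). The replicate numbers were not taken as pairing, which was judged from deviations of log2 CPM from each gene's group mean. Between same-numbered libraries of the 2 groups these deviations correlated over all genes at 0.301, 0.0852 and 0.161. Over the members the same correlations were 0.816, 0.449 and 0.756.

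Leaving out 1 library at a time gave 11 to 15 members passing, 4 to 8 higher and 5 to 9 lower, 1 to 5 of the TOP list lower, 0 to 1 large and 0 to 1 small subunit assembly factors higher, and a log2(FC) of -0.18 to 0.074 for RPL5, -0.050 to 0.16 for RPL22, -0.14 to 0.44 for RPSA, -0.024 to 0.074 for RPS14 and -0.040 to 0.084 for RPL18. In these fits 55 to 64.7% of all genes passed. Within batch A the subunit ratio differed by 0.024 and the members' share by 0.276 points. Over all 6 libraries, the share read as the median log2(CPM + 0.5) over members, with CPM from total counts, differed by 0.14 (two-sided exact permutation test, p = 0.2). The cause of these shifts was not tested. Counts per library limit RPS27, which had 1 count in n.t. replicate 1.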
